A study of Mus musculus with 6 samples.

Results

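Hox genes encode homeodomain transcription factors that give cells of the embryo their position along the head to tail axis. In the mouse they lie in 4 clusters, and genes that hold the same place in different clusters form paralog groups numbered 1 to 13. Genes of low-numbered groups are used from the hindbrain backward, and those of high-numbered groups in the trunk, tail and limbs. The cerebellum comes from the most anterior part of the hindbrain, which lies in front of the Hox domain, whereas the pons and medulla behind it arise partly from Hox-expressing tissue. Hox transcripts in a dissected cerebellum are therefore 1 gauge of how much tissue from behind it was taken along. The genes were chosen by name, as protein-coding genes called Hoxa, Hoxb, Hoxc or Hoxd with a number, and 39 of the 53715 mouse genes in the count table met that rule.

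RNA came from cerebella of male C57BL/6 mice, wild type and called adult in the labels, with 3 mice on the low-Mn diet (0 ppm Mn) and 3 on the normal-Mn diet (35 ppm Mn) for 2 weeks. Each library was made from polyadenylated RNA of 1 cerebellum. The methods call the mice biological replicates while a figure legend speaks of technical triplicates, and in that second case the p-values below cover technical spread alone. The normal-Mn columns of the count table carry dose and replicate, and the other 3 columns carry a number alone, which was read as the replicate number of the low-Mn mice. Library totals were 17124327, 14548336 and 16319036 counts in low-Mn replicates 1 to 3, and 21235216, 21277469 and 18446701 counts in normal-Mn replicates 1 to 3.

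The Hoxa cluster lies on chromosome 6 with 11 genes, and the Hoxb cluster on chromosome 11 (96194316 to 96368256, GRCm38) with 10 genes. The Hoxc cluster lies on chromosome 15 (102921103 to 103036852) and the Hoxd cluster on chromosome 2 (74668310 to 74765142), with 9 genes each. What the genes share is the homeobox, the coding stretch of 180 bases for the DNA-binding domain. It is printed here for Hoxc4 and Hoxa5, members of the groups with most of the counts described below, to show how alike the paralogs are that reads must be assigned to. The sequences run 5′ to 3′ on the coding strand, and capitals mark the 134 bases that are identical in both.
Hoxc4: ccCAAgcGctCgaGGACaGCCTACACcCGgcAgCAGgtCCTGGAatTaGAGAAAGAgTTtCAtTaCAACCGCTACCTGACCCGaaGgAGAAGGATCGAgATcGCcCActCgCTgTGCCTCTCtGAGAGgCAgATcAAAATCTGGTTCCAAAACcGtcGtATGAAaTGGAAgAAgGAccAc
Hoxa5: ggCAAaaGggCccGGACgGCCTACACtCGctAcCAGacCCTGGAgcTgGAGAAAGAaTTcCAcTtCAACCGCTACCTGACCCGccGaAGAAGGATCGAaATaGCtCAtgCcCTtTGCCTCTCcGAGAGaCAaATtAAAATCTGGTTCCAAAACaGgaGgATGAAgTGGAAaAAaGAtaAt
Each homeobox lies in 1 exon, at chr15:103035663-103035842 (plus strand) for Hoxc4 and chr6:52202632-52202811 (minus strand) for Hoxa5. Over the homeoboxes of the 8 genes with most counts, the 5 pairs from the same paralog group were identical at 82.2% to 93.9% of bases, and the 23 other pairs at 60.6% to 81.7%. The longest identical run in any of these pairs was 47 bases. Over whole transcripts, Hoxc4 and Hoxa5 shared 0% of their 50-base stretches with any other annotated gene, Hoxb4 0.4% and Hoxb5 1.8%. Among the same 8 genes, Hoxa3 shared 24.3%, Hoxb2 25.9%, Hoxb3 51.4% and Hoxd3 60.3%. Of the genes with fewer counts, Hoxa2 shared 12.7%, Hoxa4 13.3%, Hoxa7 18.7% and Hoxd4 46.8%. Counts of genes with such sharing are less certain.

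Hox transcripts were scarce in every library. The 39 genes together had 307.16 counts in the 6 libraries, 13 of them had no count at all, and another 18 had between 1 and 14 counts in all. The 26 genes with a count compare with 80.3% of all protein-coding genes. None of the 39 passed the filter on low counts, which asks for about 0.562 CPM (counts scaled to a total of 1000000 per library) in at least 3 libraries. Of all protein-coding genes, 64.7% passed it. Hoxb5, Hoxb3, Hoxb4 and Hoxa5 reached that level in any library, and none of them in more than 2. In each library, 10 to 18 of the 39 genes had a count.

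The counts that were there came mostly from paralog groups 3 to 5. These groups, with 10 genes, held 69.9% of all Hox counts, groups 1 and 2 held 15.8%, groups 6 to 8 held 10.4% and groups 9 to 13 held 3.91%. All 10 genes of groups 3 to 5 were detected, against 5 of the 16 genes of groups 9 to 13. By cluster, Hoxb genes held 44.8% of the counts, Hoxa 27.5%, Hoxd 16.6% and Hoxc 11.1%.

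**Figure D1:**
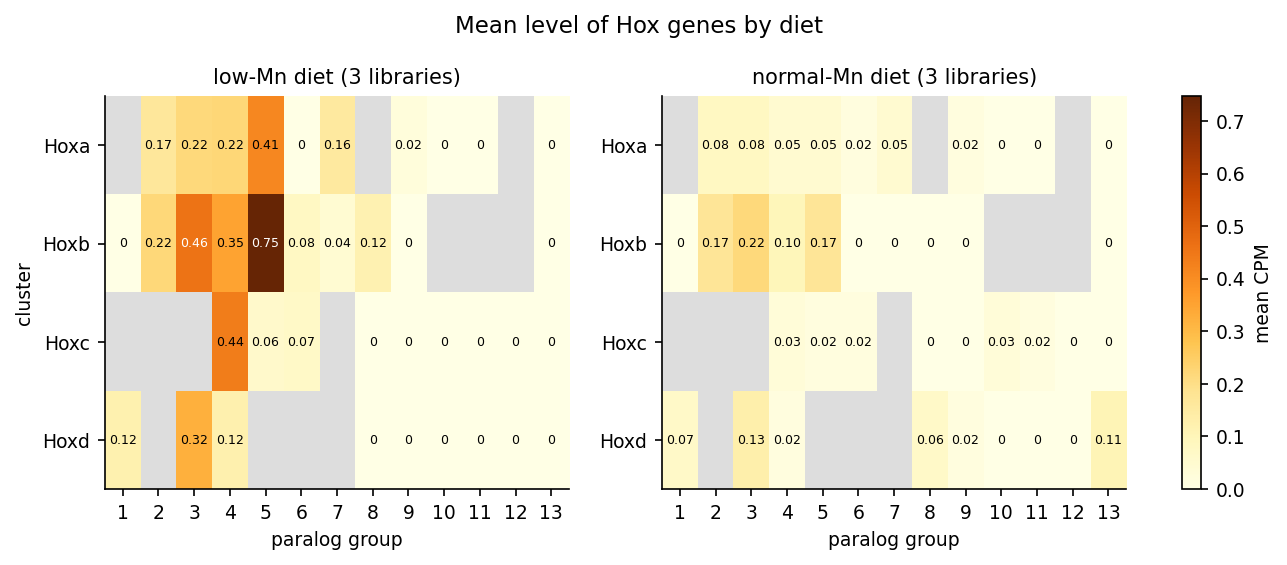
Mean level of Hox genes in CPM, with clusters as rows and paralog groups as columns, in 3 low-Mn libraries (left) and 3 normal-Mn libraries (right). Grey squares are places with no gene or with a value not shown, and the darkest squares lie in groups 3 to 5 of the low-Mn panel, with Hoxb5 at 0.75 CPM.

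The summed Hox level was higher in all 3 low-Mn libraries than in any normal-Mn library. The sum was 72.63, 38 and 101.53 counts in low-Mn replicates 1 to 3, against 38, 24 and 33 counts in normal-Mn replicates 1 to 3, although the low-Mn libraries were the shallower ones. As CPM of the raw library total, the low-Mn libraries held 4.24 (95% exact interval 3.34 to 5.36), 2.61 (1.85 to 3.59) and 6.22 (5.10 to 7.59). The normal-Mn libraries held 1.79 (1.27 to 2.46), 1.13 (0.723 to 1.68) and 1.79 (1.23 to 2.51). These Clopper-Pearson intervals cover counting error only. The intervals of low-Mn replicates 1 and 3 lay above those of all normal-Mn libraries, and that of low-Mn replicate 2 overlapped those of normal-Mn replicates 1 and 3.

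With TMM scaling, which corrects for differences in RNA composition, the sum averaged 4.36 ± 1.83 CPM on the low-Mn diet and 1.57 ± 0.37 CPM on the normal-Mn diet (SD, n = 3 each), a ratio of 2.78. Low-Mn replicate 3 held the highest value, and without it the ratio was 2.18. Without Hoxb5, the gene with most counts, the ratio was 2.59, and without the 10 genes that overlap or share sequence with a neighbour it was 3.19. In both cases all low-Mn libraries stayed above all normal-Mn libraries, in the second by as little as 1.24 against 1.22 CPM, and both were tried after the values had been seen. No p-value is given for the sum, since the genes were grouped with earlier results known. In bulk tissue, more cells with Hox transcripts and more Hox RNA per cell on the low-Mn diet cannot be told apart.

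**Figure D2:**
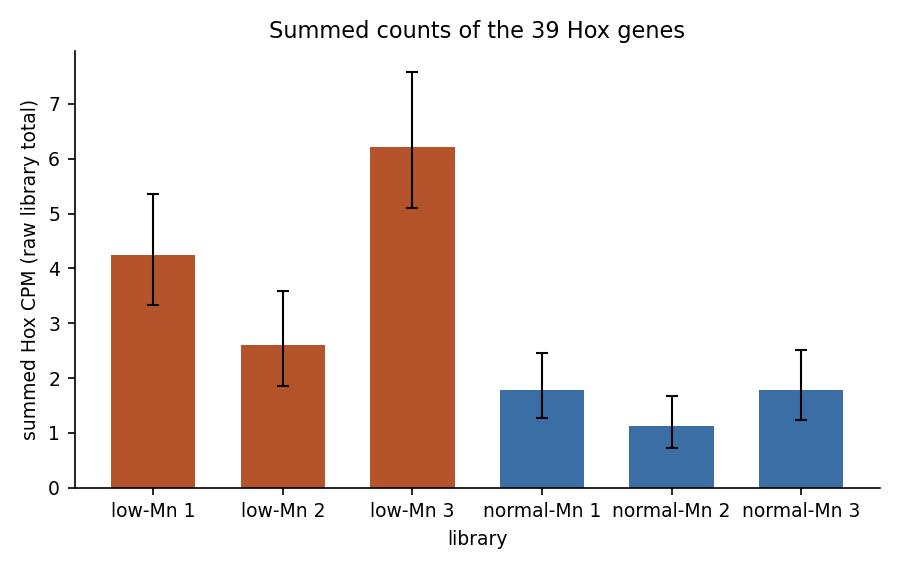
Summed CPM of the 39 Hox genes, by raw library total, in each library, with low-Mn libraries in brown on the left and normal-Mn libraries in blue on the right, and bars showing the exact 95% interval for counting error. The low-Mn libraries held 4.24, 2.61 and 6.22, all above the normal-Mn libraries at 1.79, 1.13 and 1.79.

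Most of the difference in the sum lay in groups 3 to 5. These had 48.06, 30 and 84.53 counts in low-Mn replicates 1 to 3, against 23, 12 and 17 counts in normal-Mn replicates 1 to 3, and averaged 3.35 ± 1.65 CPM on the low-Mn diet and 0.855 ± 0.258 CPM on the normal-Mn diet (SD, n = 3 each). Groups 1 and 2, the genes used farthest forward in the hindbrain, averaged 0.524 ± 0.264 CPM on the low-Mn diet and 0.385 ± 0.181 CPM on the normal-Mn diet, a gap smaller than either SD. Their counts overlapped between diets, with 8.57, 4 and 13 in low-Mn libraries and 4, 9 and 10 in normal-Mn libraries. Groups 6 to 8 had 16, 3 and 4 counts in low-Mn libraries, against 8, 0 and 1 in normal-Mn libraries. Groups 9 to 13 went the other way, with 0, 1 and 0 counts in low-Mn libraries, against 3, 3 and 5 in normal-Mn libraries.

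Among the group 4 genes, which help to pattern the posterior hindbrain and the neck, Hoxc4 had the smallest spread among the low-Mn libraries. It had 8, 6 and 7 counts in low-Mn replicates 1 to 3, against 2, 0 and 0 in normal-Mn replicates 1 to 3, or 0.436 ± 0.027 CPM on the low-Mn diet and 0.031 ± 0.054 CPM on the normal-Mn diet (SD, n = 3 each). The diets did not overlap, and the ratio of pooled counts was 13.3 with an exact counting interval from 3.25 to 117. Hoxb4 had 4, 3 and 10 counts in low-Mn libraries, against 4, 0 and 2 in normal-Mn libraries. In CPM its diets did not overlap, by a narrow margin, with 0.206 CPM in low-Mn replicate 2 and 0.187 CPM in normal-Mn replicate 1. Hoxa4 had 8, 3 and 0 counts in low-Mn libraries, against 2, 1 and 0 in normal-Mn libraries, and Hoxd4 had 6 of its 7 counts in low-Mn replicate 3.

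The group 5 genes held the single highest value and the widest spread. Hoxb5, a factor of the neck and shoulder region and of the enteric nervous system, had 11, 0 and 26 counts in low-Mn replicates 1 to 3, against 6, 5 and 0 in normal-Mn replicates 1 to 3. One library of each diet thus had none, and its mean of 0.747 ± 0.806 CPM on the low-Mn diet had an SD above the mean, next to 0.173 ± 0.151 CPM on the normal-Mn diet (SD, n = 3 each). Hoxa5, needed for the respiratory tract and the neck vertebrae, had 5, 4 and 11 counts in low-Mn libraries, against 3, 0 and 0 in normal-Mn libraries. Its diets did not overlap, at 0.414 ± 0.228 CPM on the low-Mn diet and 0.047 ± 0.081 CPM on the normal-Mn diet, and its ratio of pooled counts was 8.45 (exact counting interval 2.51 to 44.4). Hoxc5 had 4 counts in all.

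The group 3 genes, active in the hindbrain and in the pharyngeal region, were split between libraries. Hoxb3 had 7.06, 6 and 9 counts in low-Mn libraries, against 0, 0 and 12 in normal-Mn libraries, so that normal-Mn replicate 3 had the highest value of all. Hoxd3 had 0, 6 and 9 counts in low-Mn libraries, against 2, 4 and 2 in normal-Mn libraries. Hoxa3 had 4, 2 and 4.53 counts in low-Mn libraries, against 2, 2 and 1 in normal-Mn libraries, and in CPM its diets did not overlap. All 3 overlap other annotated genes, Hoxb3 over 52.9% of its exonic bases, Hoxd3 over 62.8% and Hoxa3 over 27.1%. Their counts are therefore uncertain. Hoxd3 overlaps Hoxd4, and Hoxa3 the annotated gene Gm28308, on the same strand, where strand could not separate them. For overlaps on opposite strands, the labels name a directional kit and the methods name the kit without that word. No source used here says whether the counting used strand. In low-Mn replicate 1 the estimates for Hoxb3 (7.06), Hoxb2 (1.57) and the antisense transcript Hoxb3os (3.37) add to 12. In low-Mn replicate 3 those for Hoxa3 (4.53) and Hoxaas2 (6.47) add to 11. Hoxb3os and Hoxaas2 lie on the strand opposite to these Hox genes, so fragments appear to have been shared across strands, as counting without strand would do. The 3 Hox values named here are the only ones of 234 that were not whole.

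**Figure D3:**
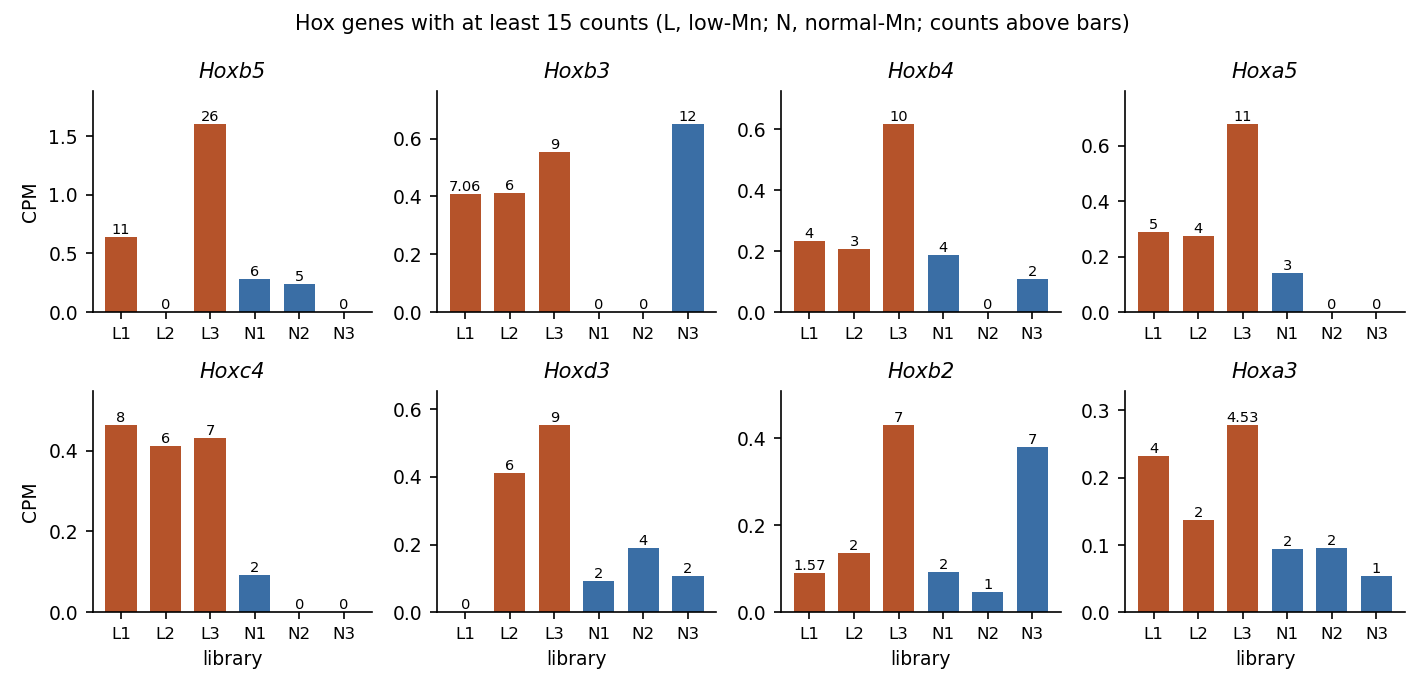
Level in CPM of the 8 Hox genes with at least 15 counts in all, in low-Mn libraries (L1 to L3, brown) and normal-Mn libraries (N1 to N3, blue), with the counts above the bars and a separate vertical scale for each gene. Hoxc4, Hoxa5, Hoxb4 and Hoxa3 were higher in every low-Mn library than in any normal-Mn library, and the other 4 overlapped.

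Among groups 1 and 2, Hoxb2, which acts in the hindbrain and the facial motor nucleus, had 1.57, 2 and 7 counts in low-Mn libraries, against 2, 1 and 7 in normal-Mn libraries. Hoxa2, the Hox gene used farthest forward in the embryonic hindbrain, had 1, 1 and 6 counts in low-Mn libraries, against 0, 4 and 1 in normal-Mn libraries. Hoxd1 had 5, 1 and 0 counts in low-Mn libraries, against 0, 3 and 1 in normal-Mn libraries. None of these separated the diets. Hoxb1, which marks a single segment of the embryonic hindbrain, had no count, which allows up to 0.206 CPM in the shallowest library.

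Of the genes behind these, Hoxa7 had 7, 0 and 1 counts in low-Mn libraries, against 3, 0 and 0 in normal-Mn libraries. Hoxb8 had 5, 0 and 1 counts in low-Mn libraries and none in normal-Mn libraries, and Hoxb6 had its 4 counts in low-Mn replicate 1. Hoxd13, a factor of digits and the genital region, had none in low-Mn libraries, against 1, 0 and 5 in normal-Mn libraries. The remaining detected genes of groups 6 to 13 had 1 to 4 counts each. The 13 genes with no count were Hoxa10, Hoxa11, Hoxa13, Hoxb1, Hoxb9, Hoxb13, Hoxc8, Hoxc9, Hoxc12, Hoxc13, Hoxd10, Hoxd11 and Hoxd12.

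Of the 39 genes, 4 were higher in every low-Mn library than in every normal-Mn library and 0 were lower in every one. Among all protein-coding genes, 6.27% were separated in the first direction and 6.21% in the second. All 4 were among the 8 Hox genes with at least 15 counts in all, of which 0 were lower in every low-Mn library. The normal-Mn libraries together gave 2 to 12 counts for each of these 8. All 8 thus reached 15 only with their low-Mn counts, and that cut was chosen after seeing values. Among the 2938 genes with 15 to 48 counts in all, the range of these 8, the shares were 4.66% and 5.21%. Genes that share libraries and a cluster are not replicates of the diet, so these counts are given as a description.

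No Hox gene was tested in the main comparison of the diets, in which edgeR called 96 of 16123 genes (0.595%), with higher levels on the low-Mn diet for 67 and lower levels for 29. With upper quartile factors in place of TMM the split was 53 higher and 37 lower. With no filter, edgeR called 424 of 26954 genes (1.57%) and 0 of the 26 Hox genes with a count. At an unadjusted p below 0.05 it named 4 of the 26, Hoxc4, Hoxb5, Hoxa5 and Hoxb8, next to 9.51% of all genes. All 4 were higher on the low-Mn diet, a direction in which 4.39% of all genes passed that limit. The log2 fold change of Hoxc4, low-Mn over normal-Mn, was 3.49 ± 1.21 (SE, edgeR adjusted p = 0.148). That of Hoxb5 was 2.04 ± 0.72 (edgeR adjusted p = 0.162) and that of Hoxa5 2.92 ± 1.15 (edgeR adjusted p = 0.267).

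The unfiltered calls of single genes moved with the tool and with single libraries. For Hoxc4, limma-voom gave an adjusted p of 0.0501 and DESeq2 one of 0.523, with 0 Hox genes called by either and 5 and 2 below an unadjusted p of 0.05. For Hoxb5 the unadjusted p was 0.00455 with edgeR, 0.288 with DESeq2 and 0.232 with limma-voom. The SE of its log2 fold change was 0.72, 1.98 and 1.15 in that order. Hoxb5 passed the edgeR threshold without low-Mn replicate 2, with a log2 fold change of 2.60 (adjusted p = 0.033), where its count had been 0. Without low-Mn replicate 3 its log2 fold change was 0.87 (edgeR adjusted p = 0.855). Of the 26 genes, 19 had a fold change above 0 and 7 below, beside 12745 above and 14209 below over all genes with a count. For genes with a diet at 0 the fitted fold is no bound, and this count is a description.

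Per length, the Hox genes had lower levels than En2 and the genes of their partner proteins. Hoxb5, the highest, averaged 0.165 CPM per kb of exon over the 6 libraries, followed by Hoxa5 at 0.123, Hoxc4 at 0.091 and Hoxb4 at 0.088 CPM per kb. Given their spread between libraries, these 4 cannot be ordered. En2, a factor that marks the cerebellum and its embryonic source, averaged 47.7 CPM per kb. The 9 PBX, MEIS and PREP genes, whose proteins bind DNA together with Hox proteins, had a median of 3.59 CPM per kb.

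The sums of the brain stem neuron markers overlapped between the diets, with a lower mean on the low-Mn diet. The 20 markers summed to 17, 23.9 and 17.3 CPM in low-Mn replicates 1 to 3, against 23.7, 23.3 and 25.5 CPM in normal-Mn replicates 1 to 3. Whether the amount of brain stem tissue differed between the diets was not tested. Most of that sum came from 2 genes, the spinal and hindbrain interneuron factors Lbx1, at 8.45 ± 1.78 CPM on the low-Mn diet and 11.9 ± 1.15 CPM on the normal-Mn diet, and Tlx3, at 8.24 ± 1.02 CPM on the low-Mn diet and 7.66 ± 1.36 CPM on the normal-Mn diet (SD, n = 3 each). Without these 2, a choice made after their values were seen, the list summed to 2.55, 4.12 and 1.42 CPM in low-Mn libraries, against 6.22, 2.19 and 5.36 CPM in normal-Mn libraries. Of the 4 members tested, 0 passed, and their median log2 fold change was -0.39 beside -0.0026 over all genes tested.

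Apart from Lbx1 and Tlx3, no brain stem marker was above 1.08 CPM in any library, the value of Tph2 in normal-Mn replicate 3. Tph2, the serotonin-synthesizing enzyme of raphe neurons, was at 0.69 ± 0.20 CPM on the low-Mn diet and 0.85 ± 0.33 CPM on the normal-Mn diet, and Slc6a2, the noradrenaline transporter, was at 0.52 ± 0.44 CPM on the low-Mn diet and 0.54 ± 0.49 CPM on the normal-Mn diet (SD, n = 3 each). Ucn, a peptide gene of the Edinger-Westphal nucleus in the midbrain, was at 0 in all libraries. The 16 forebrain and midbrain factors, none of which was tested, summed to 0.987, 1.10 and 1.48 CPM in low-Mn libraries, against 0.654, 0.998 and 1.41 CPM in normal-Mn libraries. The sums of the 39 Hox genes on the same scale were 4.22, 2.61 and 6.25 CPM in low-Mn libraries, against 1.78, 1.14 and 1.79 CPM in normal-Mn libraries, over more genes. Foxa1, Foxa2, Dlx6 and Nkx2-1 were at 0 in every library.

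The cerebellar markers were abundant in all libraries, with a sum of 14100, 14130 and 14540 CPM in low-Mn libraries, against 14270, 13650 and 14110 CPM in normal-Mn libraries, and 0 of 19 called. The lists of 3 tissues around or within the cerebellum had lower mean sums on the low-Mn diet, and the diets overlapped for the choroid plexus alone. Most of the choroid plexus sum came from 1 gene, Ttr, whose diets overlapped. It was at 2216 ± 262.5 CPM on the low-Mn diet and 2545 ± 242 CPM on the normal-Mn diet (SD, n = 3 each). Oligodendrocyte genes summed to 7035 to 7329 CPM in low-Mn libraries, against 7507 to 8333 CPM in normal-Mn libraries, and 1 of 12 was called lower. Meningeal genes summed to 383.9 to 434.9 CPM in low-Mn libraries, against 453.6 to 516.3 CPM in normal-Mn libraries. Of these, 1 of 12 was called lower, the growth factor gene Igf2 (log2 fold change -0.26 ± 0.06, SE, edgeR adjusted p = 0.0432). Choroid plexus genes summed to 2326 to 2874 CPM in low-Mn libraries, against 2689 to 3268 CPM in normal-Mn libraries. Of these, 2 of 14 were called lower, the anti-aging gene Kl (-0.51 ± 0.07, edgeR adjusted p = 0.00183) and the signalling inhibitor Sostdc1 (-0.51 ± 0.11, edgeR adjusted p = 0.0362). Over all genes tested, 29 of 16123 were called lower. Fold changes were below 0 for 11 of 12 oligodendrocyte, 12 of 12 meningeal and 13 of 14 choroid plexus genes. The median log2 fold changes were -0.125, -0.206 and -0.258. The part of tissue composition in the Hox difference was not tested.

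**Figure D4:**
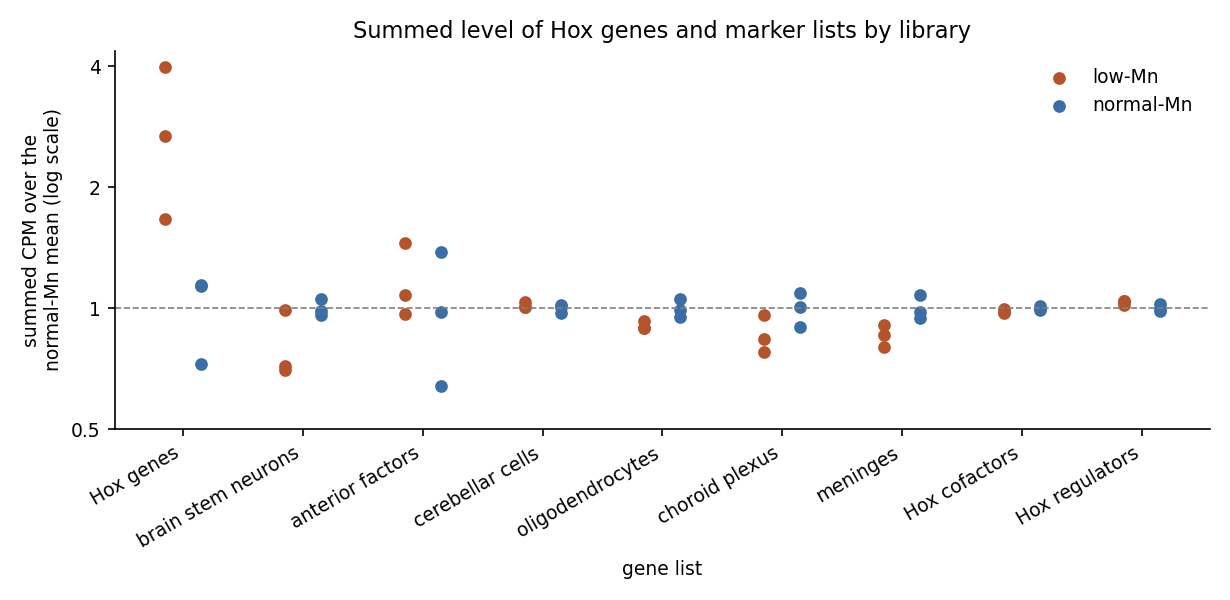
Summed CPM of the Hox genes and of 8 other gene lists in each library, divided by the mean of the normal-Mn libraries, on a log axis, with low-Mn libraries in brown on the left and normal-Mn libraries in blue on the right of each pair. The Hox sums of the low-Mn libraries lie above all normal-Mn values, and those of brain stem neurons do not.

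Known partners and regulators of Hox genes were mostly well detected, and none passed the test between diets. Of the 9 cofactor genes, all tested, 0 passed, and their sum was 290 ± 3.88 CPM on the low-Mn diet and 296 ± 3.69 CPM on the normal-Mn diet (SD, n = 3 each). Of the 30 regulators (trithorax and Polycomb proteins, retinoic acid receptors, Cdx factors and others), 27 were tested and 0 passed. The median log2 fold change was -0.046 over the cofactors and 0.028 over the regulators. Kmt2a, a trithorax methyltransferase that keeps Hox genes active, was at 207 ± 11.2 CPM on the low-Mn diet and 189 ± 12.6 CPM on the normal-Mn diet, with an edgeR adjusted p of 0.317. Rara, a retinoic acid receptor gene, had the lowest adjusted p of the 27 and was lower on the low-Mn diet. Its log2 fold change was -0.38 ± 0.10 (SE, edgeR adjusted p = 0.0875). Those of the receptor genes Rarb and Rarg were -0.29 and -0.02 (edgeR adjusted p = 0.559 and 0.885). Cdx1 and Cdx4, activators of Hox genes in the embryonic trunk, were at 0.

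The other transcripts of the clusters had counts that overlapped between the diets and were too few to compare with the Hox sum. Of 46 further annotated genes inside them, 10 had a count and 3 had at least 10 counts. Haglr, a noncoding RNA of the Hoxd cluster, had 4, 3 and 3 counts in low-Mn libraries, against 4, 1 and 5 in normal-Mn libraries. Hoxaas2 had 2, 2 and 6.47 counts in low-Mn libraries, against 0, 2 and 5 in normal-Mn libraries, and Hoxb3os had 3.37, 0 and 0, against 2, 5 and 0. The 7 microRNA genes of the clusters had none.

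The genes that flank the clusters were looked at after the Hox values had been seen. Skap2 and Hibadh beside Hoxa, Snx11 beside Hoxb, Calcoco1 and Smug1 beside Hoxc and Mtx2 beside Hoxd had 12.5 to 81.6 CPM over the 6 libraries, and none passed the edgeR test. Ttll6, the nearest gene on the other side of Hoxb, was at 0.464 to 1.44 CPM, with a log2 fold change of -0.52 (edgeR adjusted p = 0.685). Evx1 beside Hoxa and Skap1 beside Hoxb, each nearer than the tested gene named on that side, had 5 and 6 counts in all and were not tested. Evx2, a homeobox gene 8753 bases from the Hoxd cluster, was at 0.379 to 0.697 CPM, with a log2 fold change of 0.29 (edgeR adjusted p = 0.864).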

How the data were processed

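Polyadenylated RNA libraries of cerebella from mice on the 2 diets were prepared with an NEBNext Ultra II kit, directional per the labels and not so named in the methods. The authors mapped reads with STAR, and the submitters' processing notes also name RSEM, FastQC, DESeq2 and the mm10 genome, whose versions no source used here gives. Deposited values are expected counts, estimated by RSEM and not normalized by the authors. The table's IDs were matched to GENCODE M21 without their version, giving symbols for 53620 genes. The 92 spike-in entries were 0 and were left out.

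Counts were rounded and tested with the quasi-likelihood test of edgeR 4.0.16 in R 4.3.3 (TMM factors, filterByExpr with a minimum count of 10 and total of 15, Benjamini-Hochberg threshold 0.05). CPM are counts over library total times TMM factor. Alternatives used DESeq2 1.42.0 and limma 3.58.1. The fits were tested on simulated data with changes placed only in genes with more counts than any Hox gene. That test does not show how well changes in Hox genes would be found. Homeoboxes came from GENCODE transcripts.

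The members and all gene lists were chosen with earlier results of these data known. Every Hox gene was accounted for, those with 15 or more counts by library, a reading of the filter made after seeing values, as were the homeoboxes printed. From each list, members that passed, the 4 most abundant and markers at 0 could be named, and a few others were named after seeing their values. Library totals of 14548336 to 21277469 make 3 counts equal to 0.141 to 0.206 CPM. A few genes and sequences are not reported here.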

Additional observations from a re-analysis of the deposited data

How the results depend on the processing

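No Hox gene was tested in the main fit, so none could be called there. The same held with RLE or upper quartile factors, unrounded counts and an average of at least 20 counts. It also held with DESeq2, limma-voom or the replicate block under the main filter. With no filter 26 Hox genes were tested, and with a total of at least 15 counts 8 were tested. In these fits at the full set of libraries 0 were called. Leaving out 1 library gave 0 to 1 calls, the 1 being Hoxb5 with no filter and without low-Mn replicate 2. With the filter kept, 0 to 2 Hox genes were tested when 1 library was left out. The fold changes of single Hox genes have no main value to compare, and the sum over Hox genes that pass the filter could not be given, because none passed. The Hox sum ratio of 2.78 was 2.76 to 2.87 with RLE factors, upper quartile factors or scaling by exon length, and 2.18 to 3.34 with 1 library left out. Over all genes, 96 calls became 424 with no filter, 153 with DESeq2, 63 with limma-voom and 50 with a total of at least 15 counts, the last added after seeing the data. Leaving out 1 library gave 37 to 93 calls, and the count fell below 50 when low-Mn replicate 1 (47), low-Mn replicate 2 (37) or normal-Mn replicate 2 (45) was absent. The cause was not tested. With the replicate number as a block there were 128 calls over all genes, and no Hox gene was tested. With that block and no filter, 0 of 26 Hox genes were called. Deviations of same-numbered libraries correlated at 0.030, -0.024 and 0.036, and those of the other pairs at -0.049 to 0.019. With values this close to 0, whether the numbers paired the mice was neither shown nor excluded. With totals this small, most single Hox genes are near the limit that a count of 0 allows. At this depth no difference in a single Hox gene of any group passed adjustment with the full set of libraries.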
